A study of Mus musculus with 58 samples.

Results

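The DelPID_SPOC line was followed from embryonic stem (ES) cells on day 0 to cultures on day 6 of differentiation towards neural precursor cells (NPCs), in its 2 clones, A8 and G3. These 4 libraries, chosen by their titles and paired by clone, were compared out of 58 in the series. All libraries hold chromatin-associated RNA, that is, transcripts still attached to chromatin, and so reflect ongoing transcription more than the mature RNA pool. The cells are female mouse ES cells (iXist-ChrX-Dom) that carry an X chromosome from Mus musculus domesticus 129S (Dom) and one from Mus musculus castaneus (Cast), with Xist on the Dom X under a doxycycline-inducible TetOn promoter. In DelPID_SPOC cells this Xist gene also lacks the PID region, the B/C repeat through which Xist RNA recruits Polycomb, and the name SPOC stands for point mutations in the SPOC domain of SPEN. The genotype field of these libraries names the promoter and the PID deletion only, and the SPOC mutation is given by the titles. All 4 libraries share these alterations. The study's supplement describes a clone of this line, named G there, as tetraploid with both X alleles doubled. If that is G3, clone and ploidy cannot be told apart. Feeders were removed by pre-plating before ES cells were grown for an experiment, and in more rounds before differentiation began. No such step is described for day 6 itself. Day 0 cells were kept in serum and LIF without doxycycline, and day 6 cells were grown in N2B27 medium with 1 µg/mL doxycycline. The change of medium and the induction of Xist therefore cannot be told apart in this comparison. Libraries of the same clones after 1 day of doxycycline in ES medium and on day 3 of differentiation, 4 more, entered the same fit and are given side by side. Each clone gave 1 library per time point, so 2 clones are the replicates.

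Xist is the RNA that coats 1 X chromosome in female mammals and silences its genes in cis. SPEN, bound at the A repeat of Xist, acts through its SPOC domain on the NCoR and HDAC3 corepressors, and Polycomb complexes add repressive histone marks to the same chromosome. Mouse ES cells in serum and LIF are in a naive state of pluripotency in which both X chromosomes are active. On leaving that state, naive factors such as Nanog and Klf2 are lost, formative factors such as Fgf5 and Dnmt3b appear, and neural cultures then gain Sox1, Pax6 and Nes. Female ES cells with 2 active X chromosomes are known to hold on to the naive state for longer than male cells, and X-linked genes such as Klhl13 and Dusp9 take part in this.

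Depth ranged from 11.8 to 30.01 M gene-assigned fragments over the 8 libraries, with 13.2 and 30.01 M on day 0 and 18.97 and 14.8 M on day 6 in clones A8 and G3. Between 45.8% and 47.5% of these could be given to an allele. Values per library are in CPM, a library's count for a gene divided by its depth in M (mega) fragments. Clones of the same time point differed by more than 2-fold in 748 of 11287 genes on day 0 and in 629 on day 6, on CPM plus 0.5.

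Markers of the labelled cell types were only partly present. Of 8 ES cell markers, Sox2 was listed at 0 in all 8 libraries, and in the annotation used for counting it lies inside Sox2ot on the same strand, so its count does not test the label. Summed over the list, ES cell markers stood at 1337 and 1572 CPM in A8 and G3 on day 0 and still at 1003 and 1114 CPM on day 6. Among 8 neural precursor markers, Sox1, Fabp7 and Hes5 stayed below 1 CPM in all 4 libraries, Sox1 with 0 counts, which allows up to 0.227 and 0.100 CPM on day 0 and 0.158 and 0.203 CPM on day 6 in A8 and G3, counting error only. The summed neural precursor markers were 96.4 and 280 CPM on day 0 and 156 and 381 CPM on day 6, with Zfp521 the most abundant member in each. In bulk libraries, fewer cells of a type and less RNA per cell cannot be told apart. NPC is used below as the name of the culture protocol, since Sox1, Fabp7 and Hes5 were near 0.

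Markers of other cell types were summed in the same libraries. Trophoblast markers summed to 1.57 to 4.61 CPM with Cdx2 and Elf5 below 1 CPM. Mesoderm and endoderm markers summed to 11.4 and 8.63 CPM in A8 and G3 on day 0 and to 7.49 and 8.25 CPM on day 6, lower in both clones on day 6, with Mixl1, Mesp1 and Foxa2 below 1 CPM. Primitive endoderm markers summed to 26.1 and 42.8 CPM on day 0 and 19.6 and 49.1 CPM on day 6, with Sox17 and Sox7 below 1 CPM. Fibroblast markers, listed for the feeder layer, summed to 639 and 785 CPM on day 0 and 466 and 726 CPM on day 6, nearly all from Fn1, with Lum, Postn and Acta2 below 1 CPM. Their part in the results was not tested.

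Xist was induced in both clones. Its level was 53.02 CPM in A8 and 50.4 CPM in G3 on day 0, and 6466 and 6973 CPM on day 6, a log2 fold change of 7.02 ± 0.28 (SE, edgeR quasi-likelihood test, adjusted p = 0.000332). The rise was in place after 1 day of doxycycline, at 5347 and 4442 CPM. Among fragments of Xist that could be given to an allele, 99.9% came from the Dom X in both day 6 libraries (44693 of 44720 in A8, Wilson 95% interval 99.91% to 99.96%). The Xist locus (mm10, chrX:103460372-103483233) thus answered to doxycycline, whereas gene-level counts cannot show the PID deletion or the SPOC point mutations. Spen itself (chr4:141467889-141538597), the engineered silencing factor, stood at 275 and 267 CPM on day 0 and at 848 and 574 CPM on day 6, a rise of 1.36 ± 0.16 on the log2 scale (adjusted p = 0.00322) that was not there on day 1 (285 and 258 CPM).

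A large part of the transcriptome differed on day 6, when both the medium and the induction of Xist had changed. Of 15415 genes tested, 4452 (28.9%) differed between day 6 and day 0 at an adjusted p under 0.05, 2215 (14.4%) higher and 2237 (14.5%) lower on day 6, with a median log2 fold change over all genes of 0.01. These shares, 14.4% higher and 14.5% lower, are the background beside which every count of a gene list on day 6 is set. Since the lists were chosen with earlier results of these data known, an excess over these shares is a description and not a test. On day 3, 4298 genes (27.9%) differed from day 0. One day of doxycycline in ES medium called 2 genes (0.013%), Xist and Rapgef4, against 48 at an unadjusted p under 0.05 and 3 by DESeq2. A share of 0.05 of the genes tested would be 771. Between day 3 and day 6, edgeR's quasi-likelihood test called 0 genes, with 1359 at an unadjusted p under 0.05 and 56 called by DESeq2. The count of calls depended on pairing by clone: without the clone term 1284 genes were called, 727 higher and 557 lower. It also depended on single libraries, with 1561 calls without the A8 day 6 library, 2036 without G3 day 0, 2089 without A8 day 0 and 3061 without G3 day 6.

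Of the naive pluripotency genes, part fell and part held their level. The list counted 16 genes, all tested, of which 8 were lower on day 6, 0 were higher, and 8 did not pass the test (log2 fold changes from -0.54 to 1.19), against 14.5% of all genes lower; the median was -0.54. Tbx3, a T-box factor that sustains self-renewal, stood at 48.6 and 142 CPM in A8 and G3 on day 0 and at 13.8 and 36.5 CPM on day 6. It fell by 1.90 ± 0.17 on the log2 scale (adjusted p = 0.00213), and each clone's day 6 value was below its own day 0 value. Tfcp2l1, a naive network factor downstream of LIF, went from 312 and 640 CPM to 105 and 259 CPM and fell by 1.43 ± 0.12 (adjusted p = 0.00187). Klf5 read 91.2 and 246 CPM on day 0 and 43.0 and 57.8 CPM on day 6, and Klf4 read 57.0 and 97.2 CPM against 19.4 and 62.0 CPM. These Krüppel-like factors, which hold the naive network together, fell by 1.61 ± 0.32 (Klf5, adjusted p = 0.0121) and 1.08 ± 0.24 (Klf4, adjusted p = 0.0168). Klf5 did not pass without G3 day 0 (-1.14) or G3 day 6 (-1.32), nor Klf4 without A8 day 0 (-0.87) or A8 day 6 (-0.77).

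Nanog and Klf2 are the naive factors most often read as a sign of exit. Nanog, a homeobox factor, stood at 74.2 and 101 CPM on day 0, 43.2 and 61.8 CPM on day 3, and 42.7 and 82.2 CPM on day 6. The days overlapped between clones, and within clones the level fell by 0.54 ± 0.14 on the log2 scale (adjusted p = 0.0297). That call was lost without the A8 day 0, A8 day 6 or G3 day 0 library (-0.50, -0.32 and -0.59, adjusted p between 0.0755 and 0.159). Klf2 read 30.1 and 23.6 CPM on day 0 and 38.7 and 27.4 CPM on day 6, a log2 fold change of 0.29 ± 0.14 that did not pass the test (adjusted p = 0.169). On day 1 the median of the 16 naive genes was 0.10, and on day 3, 9 were lower and 1 higher, against 14.6% and 13.3% of all genes. Without the clone term none of the 16 passed on day 6, and 5, 5, 4 and 6 passed without the A8 day 0, A8 day 6, G3 day 0 and G3 day 6 library in turn.

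**Figure D1:**
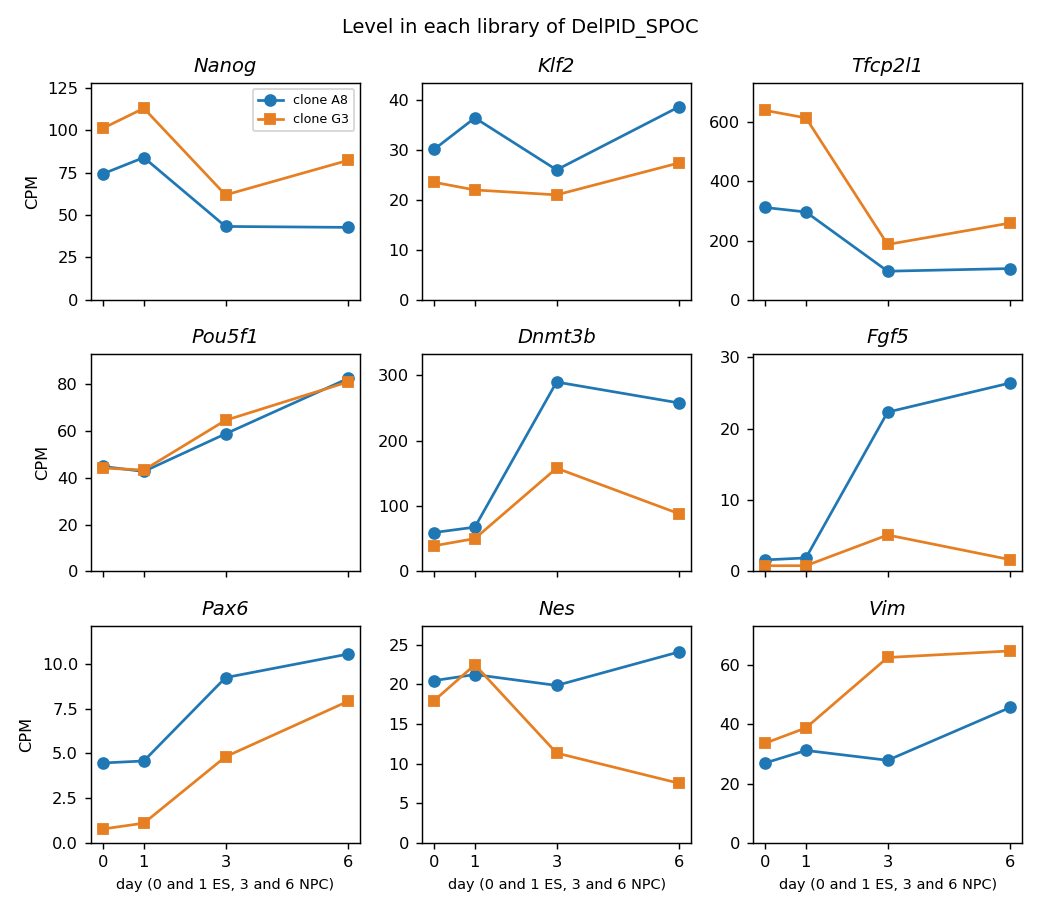
CPM by day (x axis: 0 and 1 in ES medium, 3 and 6 in NPC medium) of 9 genes in clones A8 (blue circles) and G3 (orange squares), with 1 library per point and each y axis starting at 0. Nanog and Tfcp2l1 are lower in both clones on day 6 than on day 0, Klf2 is not, Pou5f1 is higher in both, and Nes ends at 24.1 CPM in A8 and 7.50 CPM in G3.

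Genes of the wider pluripotency network moved the other way. Of 10 core pluripotency genes 9 were tested, and 6 were higher and 1 lower on day 6 (median 0.52), against 14.4% and 14.5% of all genes. Pou5f1, which encodes OCT4, read 44.9 and 44.2 CPM on day 0 and 82.6 and 81.1 CPM on day 6, with no overlap between days. It rose by 0.88 ± 0.11 on the log2 scale (adjusted p = 0.00334), and day 3 lay in between at 58.9 and 64.7 CPM. Utf1, a chromatin factor of pluripotent cells, rose from 3.85 and 4.03 CPM to 14.1 and 14.9 CPM (1.87 ± 0.22, adjusted p = 0.00322). Lin28a, an RNA-binding protein that blocks let-7 maturation, went from 21.1 and 14.1 CPM to 52.7 and 20.3 CPM and rose by 0.99 ± 0.29 (adjusted p = 0.0399). That call was lost without A8 day 6 (0.40), A8 day 0 (0.94) or G3 day 0 (1.05), with adjusted p of 0.251, 0.220 and 0.166. The exception was Tdgf1, the Nodal co-receptor, which fell by 0.79 ± 0.18 from 163 and 166 CPM to 112 and 78.9 CPM (adjusted p = 0.0173), and did not pass without G3 day 0 (-0.69) or G3 day 6 (-0.48). Without the clone term 2 of the 9 were higher and 0 lower, and leaving out 1 library left 2 to 4 higher, with 2 without either A8 library, 3 without G3 day 0 and 4 without G3 day 6.

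Formative genes, which mark the stage after naive pluripotency, rose in part. Of 12, 5 were higher and 0 lower on day 6 (median 0.50), against 14.4% and 14.5% of all genes, and the other 7 had log2 fold changes from -0.44 to 0.64. Dnmt3b, a de novo DNA methyltransferase, stood at 59.2 and 38.9 CPM on day 0, 290 and 158 CPM on day 3, and 258 and 88.0 CPM on day 6. Both clones were higher on day 6 than either was on day 0, and the rise was 1.69 ± 0.26 on the log2 scale (adjusted p = 0.00612). Without the A8 day 0 library the value was 1.46 (adjusted p = 0.0625). Fgf5, a growth factor of the epiblast, differed between the clones: A8 went from 1.59 to 26.4 CPM, and G3 from 0.767 to 1.62 CPM after 5.08 CPM on day 3. Its fitted log2 fold change was 2.93 ± 0.66 (adjusted p = 0.0177), but it was 1.37 without A8 day 6, 2.04 without A8 day 0 and 3.69 without G3 day 0, none of them past the threshold. Zic2 and Zic5, neighbouring zinc finger genes of the early neural plate, went from 11.4 and 13.4 CPM to 23.4 and 27.2 CPM (Zic2, 1.03 ± 0.14, adjusted p = 0.00468) and from 6.65 and 10.5 CPM to 13.2 and 14.9 CPM (Zic5, 0.72 ± 0.20, adjusted p = 0.032). Zic5 did not pass without A8 day 0 (0.48), A8 day 6 (0.61) or G3 day 6 (0.84). The count of 5 was 2 without the clone term, 2 without either A8 library and 3 without G3 day 0.

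Neural transcription factors gave a mixed picture. Only 11 of 18 passed the filter on low counts, and 5 of these were higher on day 6 and 0 lower (median 0.59), against 14.4% and 14.5% of all genes, while the others, among them Sox1, Six3 and Emx2, were too low to be tested. Pax6, a regulator of neural ectoderm and eye, read 4.46 and 0.767 CPM on day 0 and 10.5 and 7.91 CPM on day 6. It rose by 2.21 ± 0.48 on the log2 scale (adjusted p = 0.0158), and the value was 1.60 and 1.58 without G3 day 0 and G3 day 6, with adjusted p of 0.0595 and 0.055. Meis2, a homeobox cofactor, rose from 29.8 and 22.3 CPM to 66.1 and 58.2 CPM (1.27 ± 0.13, adjusted p = 0.00267). Zeb2, a zinc finger repressor needed for neural fate, rose from 5.36 and 5.07 CPM to 15.6 and 11.7 CPM (1.41 ± 0.31, adjusted p = 0.016). Zfp521, which promotes neural conversion, differed more between clones than between days, at 41.3 and 224 CPM on day 0 and 72.6 and 292 CPM on day 6, and rose by 0.59 ± 0.14 within clones (adjusted p = 0.0192). Without A8 day 0 or A8 day 6 neither Zeb2 (1.48 and 1.01) nor Zfp521 (0.41 and 0.44) passed, and Zeb2 also did not pass without G3 day 0 (1.33). Counts of this list were 2 without the clone term, 2 without G3 day 0 and 3 without any other library of the comparison.

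Structural genes of neural progenitors did not move as a group. Of 12, Fabp7 and Hes5 were too low, and of the 10 tested 2 were higher and 2 lower (median 0.07), close to the shares of all genes. Nes, the intermediate filament nestin, read 20.5 and 17.9 CPM on day 0 and 24.1 and 7.50 CPM on day 6, a log2 fold change of -0.41 ± 0.39 (adjusted p = 0.458) that became 0.19 without the G3 day 6 library. Vim, the filament vimentin, read 26.96 and 33.7 CPM on day 0 and 45.8 and 64.9 CPM on day 6 and rose by 0.86 ± 0.20 (adjusted p = 0.0202). It was past the threshold in 1 of the 4 fits that left out a library, the one without A8 day 0. Notch1, the receptor that keeps progenitors undifferentiated, rose from 56.4 and 54.1 CPM to 78.9 and 83.1 CPM (0.55 ± 0.11, adjusted p = 0.0119), a call lost without A8 day 0, A8 day 6 or G3 day 0 (0.55 to 0.58). Ptprz1, a receptor phosphatase of radial glia, fell from 23.0 and 21.9 CPM to 13.3 and 11.1 CPM (0.88 ± 0.16 on the log2 scale, adjusted p = 0.00942). Without A8 day 6 or G3 day 0, 0 of the 10 were higher and 1 lower.

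Among neuronal genes 12 of 18 were tested, with 3 higher and 2 lower (median 0.27), close to the shares of all genes. Tubb3, a neuronal tubulin, rose from 3.47 and 2.00 CPM to 15.9 and 11.2 CPM (2.34 ± 0.28, adjusted p = 0.00334). The RNA-binding proteins of mature neurons Rbfox3 and Elavl3 were lower on day 6, Rbfox3 at 3.11 and 4.26 CPM after 7.02 and 15.4 CPM, and Elavl3 at 7.01 and 8.18 CPM after 14.5 and 10.4 CPM. Elavl3 did not pass without A8 day 0 (-0.42), A8 day 6 (-0.56) or G3 day 6 (-0.83). Of 8 neural crest genes, 7 were tested and 2 were higher. Only 3 of 16 anterior Hox genes were tested, with log2 fold changes from 0.00 to 0.37; 0 passed in edgeR or DESeq2, and 0 had an unadjusted p under 0.05.

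Genes of other lineages did not rise. Among primitive endoderm genes 10 of 12 were tested, with 0 higher and 4 lower (median -0.45), against 14.5% of all genes lower. Lama1, a laminin chain of basement membranes, fell from 469 and 773 CPM to 163 and 424 CPM (1.18 ± 0.19 on the log2 scale, adjusted p = 0.00642). Col4a1, a collagen of the same membranes, fell from 49.3 and 142 CPM to 30.7 and 56.2 CPM (1.01 ± 0.20, adjusted p = 0.012), and did not pass without G3 day 0 (-0.78) or G3 day 6 (-0.74). The 4 lower genes were 0 without the clone term and 2 without either G3 library. Mesoderm and endoderm genes gave 1 lower of 5 tested, fibroblast genes 1 lower of 9, and trophoblast genes 0 of 5 by edgeR and by DESeq2, also at an unadjusted p under 0.05 (log2 fold changes from -1.42 to 0.86). The 8 genes of the two-cell-like state all stayed below the filter, at 0.955 CPM or less. Germline genes, often silenced by DNA methylation as cells leave pluripotency, gave 2 lower of 10, among them Dazl (36.8 and 25.1 CPM, then 12.5 and 18.2 CPM), and 0 without either A8 library (Dazl -0.70 and -0.64).

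**Figure D2:**
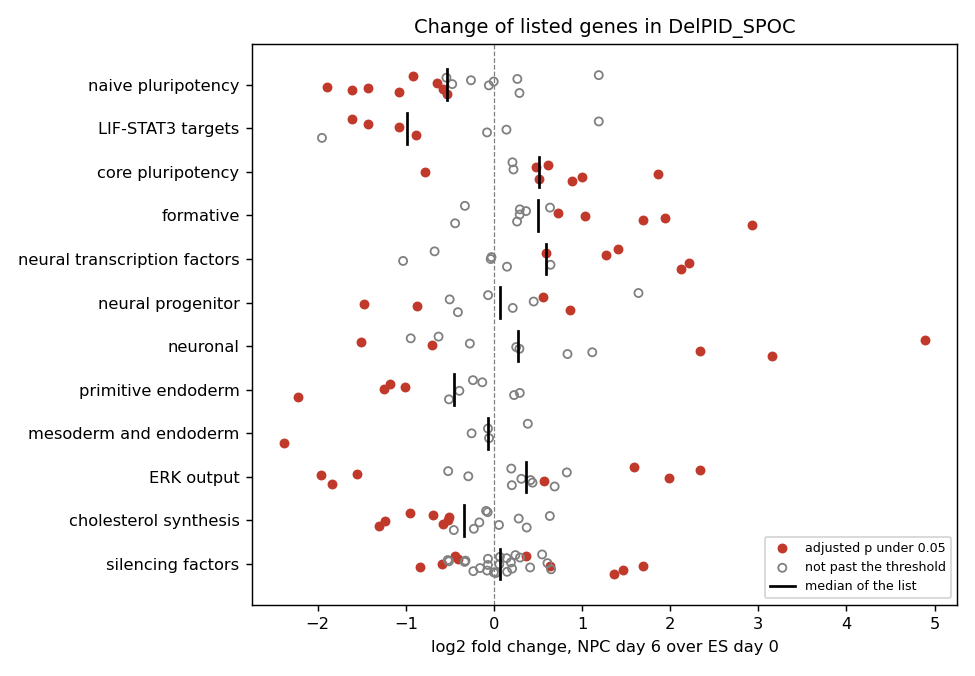
Log2 fold change, NPC day 6 over ES day 0, of the tested genes of 12 lists (x axis; 1 row per list), from the fit of 8 libraries with clone as a term. Filled red points passed an adjusted p of 0.05, open points did not, and the black bar is the median of the list; the bar lies below 0 for naive genes (-0.54) and above 0 for core (0.52) and formative genes (0.50).

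Signalling read-outs were lower for LIF and mixed for ERK. LIF activates STAT3 in ES medium and is absent from N2B27. Of 8 LIF and STAT3 genes 4 were lower (median -0.98), against 14.5% of all genes, 3 of which are the naive factors Tfcp2l1, Klf4 and Klf5 above. Stat3 itself went from 86.6 and 96.4 CPM to 32.7 and 75.1 CPM and fell by 0.88 ± 0.27 (adjusted p = 0.0464). Without A8 day 0, A8 day 6 or G3 day 6 it did not pass (-0.52, -0.62 and -1.16, adjusted p of 0.232, 0.261 and 0.0595). The count of 4 was 0 without the clone term, 2 without either A8 library or G3 day 6, and 3 without G3 day 0.

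ERK carries the FGF signal that drives exit from naive pluripotency, and 2 active X chromosomes are known to dampen it. Of 16 ERK output genes 4 were higher and 3 lower (median 0.36), against 14.4% and 14.5% of all genes. Etv4, an ETS factor induced by FGF, rose from 3.32 and 6.10 CPM to 16.5 and 18.0 CPM (1.99 ± 0.34, adjusted p = 0.00795). Ccnd1, cyclin D1, rose from 25.4 and 25.3 CPM to 78.7 and 72.6 CPM (1.59 ± 0.16, adjusted p = 0.00273). The genes that fell were of another kind, with the immediate early factor Egr1 at 44.3 and 53.2 CPM on day 0 and 15.1 and 10.1 CPM on day 6 (1.96 ± 0.22 on the log2 scale, adjusted p = 0.00317). Dusp5, a phosphatase of nuclear ERK, fell from 5.06 and 6.50 CPM to 1.11 and 2.23 CPM (1.83 ± 0.27, adjusted p = 0.00513). The 3 lower genes stayed 3 without any 1 library, while 2 were higher without A8 day 0 or G3 day 0.

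Among Nodal pathway genes 1 of 6 was higher and 3 lower, the latter against 14.5% of all genes. The ligand Nodal rose from 9.59 and 12.4 CPM to 18.6 and 21.0 CPM (0.85 ± 0.17, adjusted p = 0.012), while its inhibitor and target Lefty2 fell from 44.7 and 69.2 CPM to 18.0 and 38.8 CPM (1.07 ± 0.18, adjusted p = 0.00822). Neither passed without A8 day 6 (0.78 and -0.93), nor Nodal without A8 day 0 (0.73). WNT targets gave 3 lower of 8 tested, with Rnf43, a negative regulator of WNT receptors, at 7.63 and 4.47 CPM and then 2.48 and 2.298 CPM (not passed without A8 day 0, -1.05, or A8 day 6, -1.14). BMP targets gave 1 lower of 8, Bambi, a decoy receptor, which did not pass without A8 day 0 (-0.75) or A8 day 6 (-0.85). Of 12 tested Notch genes 2 were higher and 1 lower, close to the shares of all genes. The ligand Jag1 fell from 55.4 and 60.8 CPM to 21.7 and 29.7 CPM (1.19 ± 0.14, adjusted p = 0.00322), and the receptor Notch3 rose from 29.3 and 45.1 CPM to 53.4 and 65.2 CPM (0.70 ± 0.18, adjusted p = 0.028). Notch3 passed in 0 of the 4 fits that left out a library (0.55 and 0.56 without A8 day 0 and day 6, 0.85 and 0.83 without G3 day 0 and day 6, adjusted p from 0.0514 to 0.150). Hedgehog and retinoid genes gave 1 higher and 2 lower of 8, with the receptor Ptch1 at 135 and 109 CPM on day 0 and 74.8 and 64.4 CPM on day 6 (adjusted p = 0.00361). Without A8 day 6, lower genes numbered 1 of 6 for Nodal and 1 of 8 for WNT, and 0 Notch genes were higher there or without G3 day 0.

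X-linked genes held to slow exit from the naive state, and regulators of Xist, changed in a minority of cases. Of 12 X-linked dosage regulators 1 was higher and 3 lower (median -0.09), beside 14.4% and 14.5% of all genes. Klhl13, a substrate adaptor of a ubiquitin ligase, was the most abundant, at 1732 and 1435 CPM on day 0 and 790 and 676 CPM on day 6, with no overlap between days. It fell by 1.11 ± 0.11 on the log2 scale (adjusted p = 0.00276) with Xist induced and both X chromosomes expressed, as given below. The ERK-pathway kinases Rps6ka6 and Rps6ka3 fell by 0.65 ± 0.13 and 0.44 ± 0.10, and the kinase Araf rose from 62.5 and 67.95 CPM to 119 and 94.1 CPM. Without either A8 library 1 of the 12 was lower and 0 higher, with Araf at 0.56 and 0.48, Rps6ka6 at -0.54 and -0.57, and Rps6ka3 at -0.47 and -0.37 without A8 day 0 and A8 day 6. Without G3 day 0, Araf (0.85) and Rps6ka3 (-0.42) did not pass. Within the X inactivation centre 9 of 10 genes were tested, with 3 higher and 2 lower. Tsix, the antisense RNA that opposes Xist, fell from 440 and 578 CPM to 220 and 190 CPM (1.31 ± 0.19, adjusted p = 0.0048). Jpx, an RNA gene next to Xist that activates it, rose from 3.55 and 1.77 CPM to 12.7 and 5.14 CPM (1.73 ± 0.30, adjusted p = 0.00815), and did not pass without A8 day 6 (1.30).

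The machinery of Xist silencing was expressed on both days. All 32 silencing factors were tested, and 5 were higher and 4 lower (median 0.06), close to the 14.4% and 14.5% of all genes, so that the counts set these factors apart in neither direction. Beside Spen, the corepressor subunit Gps2 rose from 5.51 and 5.27 CPM to 16.03 and 13.7 CPM (1.47 ± 0.21, adjusted p = 0.00468). Ring1, a PRC1 ubiquitin ligase, rose from 2.49 and 1.60 CPM to 6.64 and 6.22 CPM (1.69 ± 0.30, adjusted p = 0.00898, lost without G3 day 0 at 1.41). Pcgf5, a subunit of the variant PRC1 that Xist recruits, fell from 72.9 and 55.6 CPM to 29.8 and 41.4 CPM (0.84 ± 0.19, adjusted p = 0.0177), and did not pass without A8 day 0 (-0.66) or A8 day 6 (-0.52). The other 23 factors had log2 fold changes from -0.52 to 0.65 that did not pass the test. Without the clone term 3 of the 32 were higher and 0 lower, without either A8 library 0 were lower, and without G3 day 0, 2 were higher and 1 lower. Of 9 DNA methylation genes 2 were higher and 1 lower: besides Dnmt3b, Uhrf1, which recruits the maintenance methyltransferase, rose from 126 and 90.7 CPM to 209 and 159 CPM (0.77 ± 0.10, adjusted p = 0.00353), and the dioxygenase Tet2 fell from 276 and 438 CPM to 60.3 and 167 CPM (1.77 ± 0.21, adjusted p = 0.00332).

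Cholesterol synthesis genes were in part lower on day 6. Of 16, 7 were lower and 0 higher on day 6 (median -0.34), against 14.5% and 14.4% of all genes. On day 3 it was 2 lower and 2 higher (median 0.22), close to the 14.6% and 13.3% of all genes. Insig1, the sterol sensor that retains SREBP in the endoplasmic reticulum, read 154 and 76.2 CPM on day 0, 103 and 61.1 CPM on day 3, and 66.6 and 28.1 CPM on day 6. It fell by 1.31 ± 0.14 on the log2 scale (adjusted p = 0.00293). Squalene synthase, Fdft1, went from 104 and 88.1 CPM to 36.2 and 45.2 CPM and fell by 1.24 ± 0.17 (adjusted p = 0.00422). The list depended on G3 libraries: 3 were lower without G3 day 0, and 3 were lower and 3 higher without G3 day 6. Of 12 p53 targets 3 were higher and 2 lower, close to the shares of all genes, with the pro-apoptotic Bax at 33.2 and 29.6 CPM and then 52.4 and 51.1 CPM (0.73 ± 0.13, adjusted p = 0.00981), and 0 of them passed without G3 day 0 (Bax 0.63, and 0.66 without A8 day 6, also not passed). Among 12 ATF4 targets, genes of amino acid and stress responses, 3 were higher, beside 14.4% of all genes, led by Trib3 (3.10 and 1.67 CPM, then 13.2 and 4.26 CPM). Without A8 day 0 or A8 day 6 the 3 were 0 (Trib3 1.38 and 1.51).

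Apart from Xist and Fgf5, the largest changes were found outside these lists. Klf12, a Krüppel-like repressor, rose from 50.6 and 27.4 CPM to 371 and 197 CPM, by 2.86 ± 0.14 on the log2 scale (adjusted p = 0.000332). Rapgef4, a cAMP-activated exchange factor, stood at 10.7 and 12.8 CPM on day 0 and had reached 125 and 210 CPM after 1 day of doxycycline in ES medium. On day 6 it read 103 and 127 CPM, a rise of 3.28 ± 0.18 (adjusted p = 0.000553).

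The lysophospholipase Enpp2, the secreted neurexin ligand Nxph1 and the X-linked synaptic receptor Il1rapl1 rose from 0.667 to 2.72 CPM in the day 0 libraries to 8.31 to 82.6 CPM on day 6. In A8, Il1rapl1 reached 82.6 CPM and Xkr4 116 CPM, against 15.3 and 15.6 CPM in G3. Without A8 day 0 none of Nxph1 (3.42), Il1rapl1 (3.16) and Xkr4 (2.35) passed (adjusted p of 0.0629, 0.0863 and 0.198), and Xkr4 also did not pass without G3 day 0 (3.79, adjusted p = 0.0923) and was 1.80 without A8 day 6. Cmss1 (chr16:57301999-57606867) read 363 and 432 CPM on day 0 and 2250 and 21038 CPM on day 6, when it took 2.10% of the G3 library. Its log2 fold change of 4.41 ± 0.76 (adjusted p = 0.00832) was 2.77 without G3 day 6, and did not pass without A8 day 0 (4.92, adjusted p = 0.125) or G3 day 0 (3.80, adjusted p = 0.162). It overlaps Filip1l on the other strand, which took 0.953% of the A8 day 0 library.

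Genes that fell most included A2m, a secreted protease inhibitor, at 105 and 275 CPM on day 0 and 2.48 and 21.1 CPM on day 6 (-4.46 ± 0.46, adjusted p = 0.0028). Fgf10, a ligand of FGFR2, fell from 29.0 and 216 CPM to 2.64 and 13.4 CPM (-3.79 ± 0.22, adjusted p = 0.000622). Prelid2, a relative of mitochondrial lipid carriers, fell from 194 and 264 CPM to 14.7 and 30.2 CPM (-3.42 ± 0.16, adjusted p = 0.000332). Grin1, an NMDA receptor subunit, fell from 13.1 and 14.4 CPM to 0.791 and 1.28 CPM. The rest of the 10 with the largest fall, which are 6030407O03Rik, 4632428N05Rik, Gm5091, Loxl2, Mobp and Accsl, had log2 fold changes from -4.97 to -3.50. Accsl did not pass without A8 day 0 (-3.06), A8 day 6 (-2.67) or G3 day 0 (-4.10).

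Many genes passed a 2-fold change in 1 clone and not in the other. Of 11287 genes with a mean of at least 5 CPM on day 0 or day 6, 762 were up more than 2-fold in A8 and 701 in G3, on CPM plus 0.5. Of these, 267 were up in both. A gene just over 2-fold in 1 clone and just under it in the other counts for 1 clone only. Down more than 2-fold were 883 in A8 and 585 in G3, with 350 in both, and 8 genes moved more than 2-fold in opposite directions. Each clone was 1 culture per day, so clone, ploidy and culture cannot be told apart.

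The same days were compared with 3 other lines in 1 fit of 17 libraries without a clone term: the PCGF3/5 degron line without degrader (PCGF35_ctrl), the SPOC mutant with intact Xist (SPOC), and the degron line with the SPOC mutation and degrader (PCGF35_SPOC_dTAG). For the 16 naive genes the median log2 fold change in this fit was -0.49 in DelPID_SPOC, -2.52 in PCGF35_ctrl, -1.02 in SPOC and -0.61 in PCGF35_SPOC_dTAG. Lower at an adjusted p under 0.05 were 1, 15, 6 and 0 of them, against 5.2%, 12.1%, 14.8% and 0.426% of all genes. In 15 of 16 the change in DelPID_SPOC lay above that in PCGF35_ctrl, with Nanog at -0.51 against -2.12 and Klf2 at 0.31 against -2.61. The test of the difference itself called 0 of the 16 by edgeR (lowest adjusted p = 0.0547), with 13 at an unadjusted p under 0.05 and 5 called by DESeq2, all smaller falls in DelPID_SPOC, and 2 were called with a replicate block. Against SPOC and against PCGF35_SPOC_dTAG, edgeR and DESeq2 called 0 of 16, with 1 and 2 at an unadjusted p under 0.05. The day 6 libraries of PCGF35_SPOC_dTAG stood apart from each other, with summed ES cell markers at 353 and 1054 CPM. Without its day 6 library of replicate 2, 2 of the 16 were called, both with a more positive change in DelPID_SPOC, and 10 had an unadjusted p under 0.05.

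**Figure D3:**
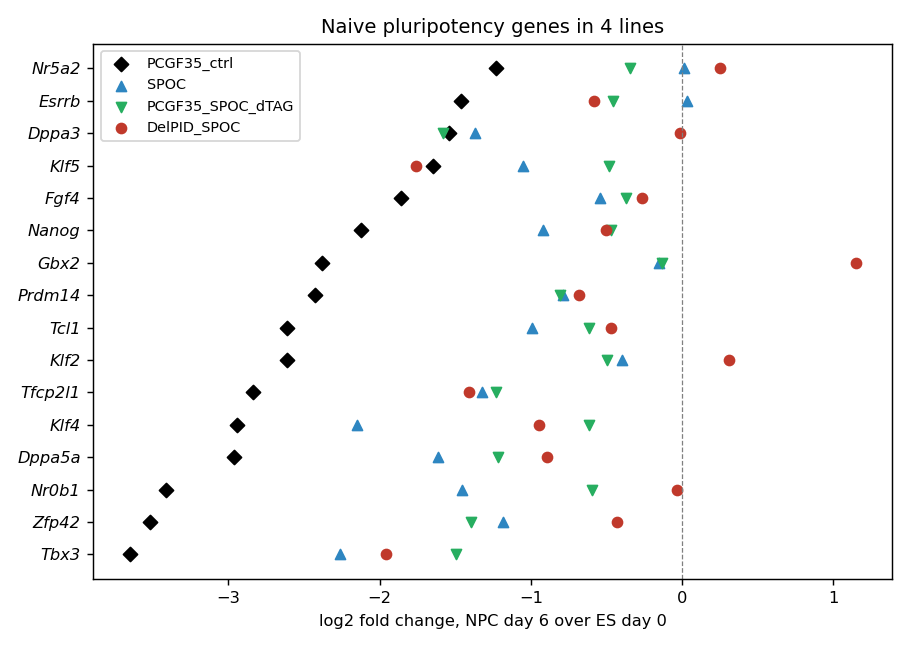
Log2 fold change, NPC day 6 over ES day 0, of the 16 naive pluripotency genes (1 row per gene) in DelPID_SPOC, PCGF35_ctrl, SPOC and PCGF35_SPOC_dTAG, from the fit of 17 libraries. Points of DelPID_SPOC lie to the right of those of PCGF35_ctrl for 15 of 16 genes, and the difference passed the edgeR test for 0 of them.

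Over all 15743 genes of that fit, 49 (0.311%) changed differently in DelPID_SPOC and PCGF35_ctrl, 23 (0.146%) with a more positive and 26 (0.165%) with a more negative change, at adjusted p of 0.0498 to 0.0499. The 5 with the most negative difference had log2 changes of 2.95 to 5.10 in PCGF35_ctrl and of -1.56 to -0.46 in DelPID_SPOC. Gata4, a factor of primitive endoderm, read 7.18 and 6.60 CPM on day 0 and 4.01 and 5.68 CPM on day 6 in DelPID_SPOC, against 1.49 and 3.19 CPM and then 25.5 and 83.3 CPM in PCGF35_ctrl. Nrcam, a neural adhesion molecule, read 31.4 and 70.1 CPM and then 31.6 and 43.3 CPM in DelPID_SPOC, against 11.2 and 16.5 CPM and then 107 and 124 CPM in PCGF35_ctrl. In PCGF35_ctrl, primitive endoderm markers reached 88.7 to 258 CPM and trophoblast markers 70.3 to 133 CPM on day 6, and their part in these differences was not tested. On the other side, Aard read 14.1 and 17.1 CPM and then 13.1 and 16.2 CPM in DelPID_SPOC, against 22.6 and 13.0 CPM and then 1.64 and 1.31 CPM in PCGF35_ctrl. Of the 49, 7 are X-linked, beside 603 X-linked genes among the 15743 of the fit. All 7 had the more positive change in DelPID_SPOC, as did the X-linked genes as a whole. The median log2 change of the 603 was -0.17 in DelPID_SPOC and -1.001 in PCGF35_ctrl. The 49 became 388 without the A8 day 0 library, 7 without the PCGF35_ctrl day 0 library of replicate 2, and 0 without any other library of both lines. Against SPOC and PCGF35_SPOC_dTAG 0 genes were called by edgeR, with 2255 and 1478 at an unadjusted p under 0.05 and 345 and 4 called by DESeq2.

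Total X-linked expression was slightly lower on day 6. Over 597 X-linked genes the median log2 fold change was -0.152, with 70 (11.7%) higher and 128 (21.4%) lower. Over autosomal genes the median was 0.02, with 14.5% higher and 14.2% lower. Medians of single autosomes ran from -0.146 to 0.147, and none of them lay below that of the X. The lowest, of chromosome 18, was close to it, and there 10.2% of genes were higher and 21.9% lower. The clones' own X medians were -0.10 in A8 and -0.25 in G3, while on day 1 the median was 0.00 and on day 3 -0.10. In the fit of 17 libraries it was -0.17 in DelPID_SPOC, -1.001 in PCGF35_ctrl, -0.62 in SPOC and -0.43 in PCGF35_SPOC_dTAG, as values side by side with no test.

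The allelic ratio, Dom fragments over Dom plus Cast fragments, reads the share of the Dom X, the one that makes Xist. It is near 0.5 with both X chromosomes active and near 0 after full silencing of the Dom X. Loss of an X chromosome in part of the cells would move it too. The study saw such loss in later cultures of lines with a strong silencing defect, and it was not tested here in DelPID_SPOC. Over the 246 X-linked genes of the deposited table, the median ratio was 0.531 in A8 and 0.519 in G3 on day 0 and 0.496 and 0.508 on day 6. Both clones thus ended lower than they began, by 0.0350 in A8 and 0.0113 in G3, and the mean difference was -0.02315 (exact two-sided permutation test, p = 0.333, the smallest that 2 against 2 libraries can give). In between, on day 1 and day 3, the medians were 0.514 and 0.509 in A8 and 0.513 and 0.527 in G3. The fall in G3 was therefore not steady, as its day 3 median lay above that of day 0. The quartiles of the genes were 0.440 to 0.541 in A8 and 0.460 to 0.560 in G3 on day 6. Ratios under 0.2 were seen in 2 and 1 genes on day 0 and in 3 and 2 on day 6, compared with 231 and 218 genes in the day 6 libraries of PCGF35_ctrl. Median ratios on day 6 were 0.0649 and 0.0833 in PCGF35_ctrl, 0.331 and 0.338 in SPOC, and 0.579 and 0.500 in PCGF35_SPOC_dTAG. The study's supplement reads an upward skew in a clone of that line, under another clone name, as loss of the Cast X in part of the cells, so silencing and such loss cannot be told apart in its ratios or X-linked median. Median depth per gene in DelPID_SPOC was 208.5 and 443 allelic fragments on day 0 and 291.5 and 215 on day 6.

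**Figure D4:**
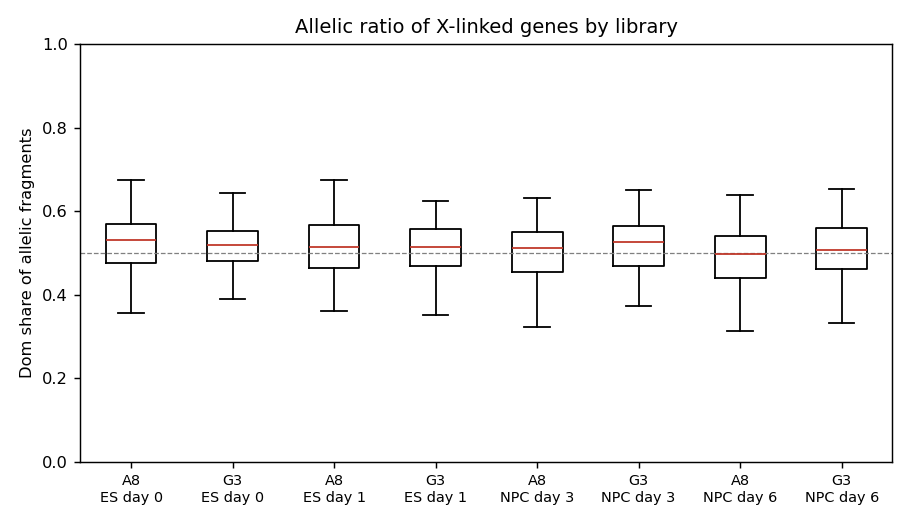
Allelic ratio, Dom over Dom plus Cast fragments, of X-linked genes in each of the 8 DelPID_SPOC libraries; boxes span the quartiles, the red line is the median and whiskers run from the 5th to the 95th percentile of genes. Medians stay between 0.496 and 0.531 in all 8 libraries.

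Lower Dom shares were called for a minority of genes. A test on the counts of both alleles, with clone as a term, called 20 of 242 X-linked genes between day 6 and day 0 (8.26%), 19 towards a lower and 1 towards a higher Dom share. Over 11796 autosomal genes 4.39% were called, 1.92% lower and 2.48% higher. The share was lower in both clones for 110 X-linked genes (45.5%) and higher in both for 46 (19.01%), against 27.2% and 29.96% of autosomal genes and 22.9% to 32.7% lower in both on single autosomes. The 20 calls were 1 (Eda) without the clone term, 0 by limma on the ratios, 6 without A8 day 6 and 15 without G3 day 6. On day 3 the same test gave 14 lower and 4 higher of 242, against 5.26% of autosomal genes (2.09% lower and 3.17% higher). On day 1 it gave 1 lower, 4930519F16Rik, against 0.00848% of autosomal genes.

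By position, called genes lay both next to Xist and far from it. Of 11 genes within 2 Mb of Xist 3 were called lower, of 19 at 2 to 5 Mb also 3, and of 22 at 5 to 10 Mb 0, while beyond 40 Mb it was 8 of 123. 4930519F16Rik (chrX:103232280-103256606), a transcript of unknown function 0.204 Mb from Xist, had a Dom share of 0.369 in A8 and 0.327 in G3 on day 0. It read 0.275 and 0.191 on day 1, 0.175 and 0.170 on day 3, and 0.178 and 0.184 on day 6 (Wilson 95% interval in A8 0.153 to 0.206; adjusted p = 4.53e-08). Its total expression did not change past the threshold. Eda (chrX:99975605-100400760), the ectodysplasin ligand of hair and tooth development, 3.06 Mb away, went from 0.475 and 0.476 to 0.363 and 0.373 on 2429 to 15050 allelic fragments per library (adjusted p = 4.73e-10). Its total level fell as well, from 716 and 1146 CPM to 350 and 378 CPM (-1.32 ± 0.18 on the log2 scale, adjusted p = 0.00425).

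Nhsl2, 1.37 Mb from Xist, moved from 0.533 and 0.495 to 0.366 and 0.332 (adjusted p = 2.46e-06). Awat2 (chrX:100402221-100442717), an acyltransferase of wax synthesis, moved from 0.583 and 0.568 to 0.354 and 0.341 on 44 to 185 allelic fragments (adjusted p = 0.0129). Stard8, a RhoGAP of focal adhesions, moved from 0.346 and 0.361 to 0.201 and 0.258 (adjusted p = 0.0004). Farther away, Firre, the gene of a nuclear RNA, stood at 0.634 and 0.669 and then 0.578 and 0.577 (adjusted p = 4.35e-06), and Flna, filamin A, at 0.540 and 0.565 and then 0.479 and 0.505 (adjusted p = 0.00107). Sytl5, 93.5 Mb away and low in depth, moved from 0.346 and 0.364 to 0.143 and 0.250 (adjusted p = 0.049). The 1 gene with a higher Dom share was Shroom4, an actin regulator 96.8 Mb away, at 0.496 and 0.489 and then 0.580 and 0.558 (adjusted p = 0.000182). The others called lower were Phka1, Zfp275, Fam122b, Gyk, Pls3, Ddx26b, Mtm1, Fgf13, Rpgr, Jade3 and Gpc3. In total expression, 7 of the 20 were lower on day 6, 1 (Flna) higher, and the others did not pass the test.

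**Figure D5:**
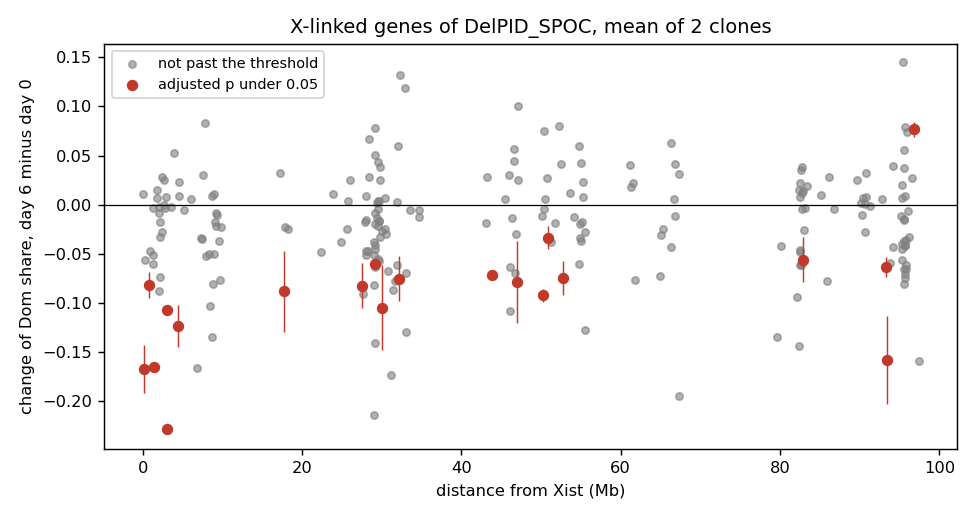
Change of the Dom share, NPC day 6 minus ES day 0, as the mean of both clones (y axis) against distance from Xist in Mb (x axis) for 242 X-linked genes. Red points are the 20 genes called by the allele test, with lines joining the values of the 2 clones; 6 of the 30 genes within 5 Mb were called, all lower.

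Promoter sequence was looked at for the members with the largest shift in each direction, because CG dinucleotides in promoters are the sites of DNA methylation. The 250 bases before the start of the genes, read from RefSeq on GRCm38.p6 in the direction of transcription, are printed with CG in capitals. They lie at chrX:100442718-100442967 (minus strand, 1 CG), chrX:103256606-103256855 (minus strand, 0 CG) and chrX:6399782-6400031 (plus strand, 10 CG).
Awat2: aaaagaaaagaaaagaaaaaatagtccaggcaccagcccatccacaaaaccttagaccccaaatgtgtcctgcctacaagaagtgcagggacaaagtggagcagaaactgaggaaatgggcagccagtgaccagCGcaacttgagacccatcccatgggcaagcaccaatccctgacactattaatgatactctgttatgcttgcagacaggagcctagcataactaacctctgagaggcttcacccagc
4930519F16Rik: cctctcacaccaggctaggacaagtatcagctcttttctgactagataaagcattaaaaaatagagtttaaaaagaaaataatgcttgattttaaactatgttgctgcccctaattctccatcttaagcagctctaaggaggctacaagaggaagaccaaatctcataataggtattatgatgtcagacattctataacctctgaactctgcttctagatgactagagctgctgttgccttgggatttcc
Shroom4: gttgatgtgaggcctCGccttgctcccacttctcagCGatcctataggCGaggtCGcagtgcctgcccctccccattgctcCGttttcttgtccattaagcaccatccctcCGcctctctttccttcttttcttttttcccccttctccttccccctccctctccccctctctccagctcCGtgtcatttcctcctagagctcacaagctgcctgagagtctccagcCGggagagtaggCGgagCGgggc
Over 16 genes called lower with a promoter in the table the median was 11.5 CG (range 0 to 25), and over 175 X-linked genes that were not called it was 13 (range 0 to 48). Of all 27025 promoters 91.7% hold at least 1 CG, with a median of 6, so the low counts of Awat2 and 4930519F16Rik are not shared by the called genes as a group.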

How the data were processed

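Chromatin-associated RNA was sequenced in 58 libraries, of which 8 are of the DelPID_SPOC line. Per the labels and the methods, the authors removed rRNA reads with Bowtie2 2.3.2, mapped the rest with STAR 2.4.2a to mm10, strain variants masked, split alleles with SNPsplit and counted fragments with strand in featureCounts. The deposited tables hold counts per gene in total and for each allele (22556 genes). A deposited table holds the allelic ratio of 246 X-linked genes as a fraction, Dom over Dom plus Cast fragments, and recomputing it from the counts gave the same values. Column 7 of the tables is the total and columns 8 and 9 are the Cast and Dom counts.

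Expression was tested with edgeR 4.0.16 (quasi-likelihood test, robust, TMM, filterByExpr, Benjamini-Hochberg adjustment over all genes tested, threshold 0.05) in R 4.3.3, in 1 fit of the 8 libraries with 1 mean per time point plus clone. Differences between lines came from a fit of 17 libraries without a clone term. Allelic shares were tested by edgeR on both alleles' counts of genes with at least 10 allelic fragments in at least 7 of 8 libraries, with library effects, allele by time point and allele by clone. Library medians were compared by exact permutation. Alternatives used DESeq2 1.42.0 and limma 3.58.1. The edgeR models of day 6 against day 0, of the difference from PCGF35_ctrl and of allelic shares were run on simulated counts without clone differences. The alternatives were not run on simulated counts. The same clone names pair the libraries: deviations of same-named clones from their group means correlated at 0.284 to 0.803.

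Named genes were, per list, at most 4 with the largest change past the threshold and at least 5 CPM, with 8 fixed marker genes. Also named were at most 10 per direction with the largest change and no overlap between days, and at most 5 per direction for differences between lines. These too had to pass the threshold and reach 5 CPM in the highest group. All X-linked genes past the allele test were added. Some genes that met this rule are not reported here. Genes named as too low to test were named after their values were seen. The members and lists were chosen with earlier results of these data known. P-values of fits with a clone term measure how far the changes of 2 clones, 1 culture each per day, depart from each other. They draw on all time points of the line. In the fit of 17 libraries, p-values measure the spread between libraries of the same line and day. Intervals and floors (3 counts) cover counting error only, and PCR copies are not independent molecules.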

Additional observations from a re-analysis of the deposited data

Results flagged for a closer look

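The change from day 0 to day 6 differed between DelPID_SPOC and PCGF35_ctrl for 49 genes by the interaction test. Values given here are the log2 change in DelPID_SPOC minus that in PCGF35_ctrl. They cover the 5 largest differences in each direction among genes with a mean of at least 5 CPM in a group of these lines. Ndst4 (7.73) did not reach that level. On the negative side were St6galnac5, a sialyltransferase (-6.59), Flt1 (-5.73), Gata4 (-5.10), Mcc (-3.91) and Nrcam (-3.57). On the positive side were Gm1995 (9.50, a fitted value with PCGF35_ctrl listed at 0 in both day 6 libraries, and so no bound), the testis cytochrome c Cyct (3.69), Aard (3.45), Dusp27 (3.32) and Gpa33 (2.83). Dusp27 and Gpa33 are neighbours on chromosome 1. All had an adjusted p of 0.0498, just inside the threshold.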

How the results depend on the processing

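With 2 clones of 1 culture each, the number of calls followed the model. Without the replicate block (the clone term), genes called on day 6 against day 0 were 1284 in place of 4452, those on day 3 were 985 in place of 4298, and X-linked allelic calls were 1 in place of 20; the replicate block raised calls against PCGF35_ctrl from 49 to 215. The 4 libraries alone gave 2473 calls on day 6. Leaving out 1 library gave 1561 to 3061 calls on day 6, 480 (without G3 day 3) to 2039 on day 3, 6 to 15 allelic calls, and 0 to 388, 0 to 2 and 0 to 723 calls of a difference from PCGF35_ctrl, SPOC and PCGF35_SPOC_dTAG, the 723 without 1 day 6 library of that line. DESeq2 gave 56 genes between day 6 and day 3 and 1237, 345 and 4 for the 3 lines. In fits of all 58 libraries day 3 gave 2855 calls, and the lines 1045 and 203 (PCGF35_ctrl and SPOC). Limma on the ratios called 0 X-linked genes. Of 86 expression values named, 84 were past the threshold, 37 without the replicate block and 52, 60, 52 and 71 without A8 day 0, G3 day 0, A8 day 6 and G3 day 6. Nes ranged from -1.22 (without A8 day 6) to 0.19 (without G3 day 6). The difference of the median ratio stayed between -0.0350 and -0.0113, and the X-linked median between -0.23 and -0.11, under the alternatives run. Depth limits single ratios of genes with few allelic fragments, such as Awat2 and Sytl5. The cause of these shifts was not tested.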

Other observations

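A list of 24 hypoxia and HIF target genes, written after values had been seen and so without support from its counts, gave 20 lower and 0 higher of 23 tested on day 6 (median -1.59), with the X-linked glycolytic gene Pgk1 at 403 and 204 CPM on day 0 and 60.4 and 52.99 CPM on day 6. Bnip3, a mitophagy receptor, went from 79.4 and 32.4 CPM to 4.14 and 6.69 CPM, and the glucose transporter Slc2a1 from 371 and 311 CPM to 126 and 115 CPM. On day 3 it was 21 lower (median -1.66). Of all genes 14.5% were lower on day 6 and 14.6% on day 3. In the fit of 17 libraries the median was -1.61 in DelPID_SPOC, -0.92 in PCGF35_ctrl, -1.36 in SPOC and -0.90 in PCGF35_SPOC_dTAG. Lower in these lines, in that order, were 18, 13, 17 and 3 of 24, against 5.2%, 12.1%, 14.8% and 0.426% of all genes. The count of 20 on day 6 was 18 without the clone term and 16 to 20 without 1 library.

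Several autosomes had Dom shares away from 0.5 in these clones on both days. The median over genes of chromosome 8 was 0.353 in A8 and 0.511 in G3 on day 0, and 0.348 and 0.502 on day 6. Chromosome 11 stood at 0.353 and 0.354, chromosome 12 at 0.371 and 0.356, and chromosome 18 at 0.692 and 0.690 on day 0. On day 6 the medians in A8 and G3 were 0.348 and 0.357 on chromosome 11, 0.361 and 0.370 on chromosome 12, and 0.711 and 0.685 on chromosome 18. The allele test between day 6 and day 0 called 7.12% of genes on chromosome 18, against 4.39% of autosomal genes. What these shares mean for total expression or for the change of the allelic share was not tested.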
